A study of Arabidopsis thaliana with 12 samples.

Results

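The genes described here are those of carbon fixation by the Calvin cycle and of photorespiration in *Arabidopsis thaliana*. They were chosen by locus identifier from lists of enzymes and came to 33 of the 33602 loci in the count tables. There were 21 genes of the Calvin cycle, namely 4 Rubisco small subunits, Rubisco activase, 13 enzymes of the reduction and regeneration steps and 3 CP12 regulators, and there were 12 genes of photorespiration. All 33 loci were found in the reference annotation (TAIR10.1), and all 33 were among the 18356 genes that passed the filter on low counts. Whole seedlings of 4 genotypes in the Columbia-0 background were compared: wild type (WT), *pif3*, *pif145* (*pif1pif4pif5*) and *pifq* (*pif1pif3pif4pif5*). Seeds of every genotype received 3 h of white light and a far-red pulse of 15 min, and the seedlings then grew in darkness at 21 °C to an age of 2 days. Each genotype had 3 libraries of messenger RNA 3′ ends, which the study describes as biological replicates, with 23907577 to 41247734 counted reads in each.

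PIF1, PIF3, PIF4 and PIF5 are bHLH proteins that bind DNA; dark-grown seedlings build them up, and light-activated phytochrome triggers their breakdown. In the Calvin cycle Rubisco joins carbon dioxide to ribulose bisphosphate, the product is reduced with ATP and NADPH, and most of the resulting triose phosphate is used to regenerate the acceptor. Rubisco also reacts with oxygen, and photorespiration returns the carbon of the resulting phosphoglycolate to the cycle through enzymes of the chloroplast, the peroxisome and the mitochondrion. The nuclear genes of both pathways are known to be expressed strongly in green leaves and at lower levels in etiolated seedlings.

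As a check of the labels, *PIF1* and *PIF5* stood at 0.145 CPM or less in the mean of *pif145* and of *pifq*, against 9.75 and 1.26 CPM in WT, and *PIF3* stood at 1.14 and 0.945 CPM in *pif3* and *pifq* against 61.7 CPM in WT. CPM are the library's counts scaled to a common total with TMM factors. *PIF4* was at 2.77 to 5.53 CPM in the means of the 4 genotypes, so its 3′ tags check nothing. Over all genes, 904 were higher and 615 lower in *pifq* than in WT at an adjusted p of at most 0.05 with a fold of 2 or more, which are the study's own cut-offs. Without scaling factors these were 579 and 888, and the median log2 ratio of all genes moved by -0.166. Of the markers of other tissues, 3 of 7 tested seed reserve and endosperm genes fell in *pifq*/WT and 3 in *pif145*/WT. *SESA3* and *EPR1* had log2 ratios above 0 in *pifq*/WT (0.19 and 0.27), as had *EPR1* in *pif145*/WT (0.49). The summed level of the 8 listed genes was 489 to 1300 CPM in WT, 567 to 983 in *pif3*, 57.6 to 117 in *pif145* and 71.1 to 128 in *pifq*. Of the 6 root genes and the 3 genes of the glyoxylate cycle and gluconeogenesis 0 passed both thresholds in *pifq*/WT by edgeR or by DESeq2. At an unadjusted p under 0.05, 1 of the 6 root genes, *SHR*, was lower (log2 -0.37), where 15.1% of all genes were lower, against 0 of the 3. Of 4 tested genes of the shoot apex, epidermis and stomatal lineage 0 passed both thresholds by either tool, and 1 was lower at an adjusted p of at most 0.05. The part of left-over seed tissue in the results below was not tested.

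PIF proteins bind the G-box (CACGTG), some of them also bind the PBE-box (CACATG), and the I-box (GATAAG) is a known element of light-responsive promoters such as those of the small subunit genes. The 250 bases upstream of each annotated gene start were read from RefSeq's TAIR10.1 and searched on both strands. A G-box lay in 3 of 21 Calvin cycle and 2 of 12 photorespiration windows, against 6.49% of the windows of 27443 protein-coding genes. A PBE-box lay in 2 and 0 windows (11.1% of all), and an I-box in 5 and 0 (12.3% of all). In windows of 1000 bases the G-box was in 4 and 4 (14.8% of all), the PBE-box in 8 and 2 (37.7%) and the I-box in 11 and 5 (40.6%). The 5 windows below are shown because their genes carry the results below: neighbouring small subunit genes that moved apart in *pifq*, the gene with the largest rise, a Calvin cycle gene that stayed near its WT level, and the photorespiration gene with the smallest p in *pifq*/WT. Capitals mark G-boxes, PBE-boxes and I-boxes on either strand, and each window is written 5′ to 3′ on the strand of its gene.
RBCS1B (AT5G38430, chr5:15385321-15385570, minus strand): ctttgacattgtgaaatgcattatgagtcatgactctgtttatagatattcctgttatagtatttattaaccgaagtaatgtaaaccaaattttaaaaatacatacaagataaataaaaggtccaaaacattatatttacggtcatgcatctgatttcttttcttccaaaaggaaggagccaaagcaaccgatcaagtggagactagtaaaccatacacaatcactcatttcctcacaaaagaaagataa
RBCS2B (AT5G38420, chr5:15382072-15382321, minus strand): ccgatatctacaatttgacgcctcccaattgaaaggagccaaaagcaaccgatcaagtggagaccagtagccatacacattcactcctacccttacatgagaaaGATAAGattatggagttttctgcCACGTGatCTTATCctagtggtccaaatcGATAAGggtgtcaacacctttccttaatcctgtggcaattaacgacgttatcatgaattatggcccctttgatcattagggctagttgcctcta
GAPA2 (AT1G12900, chr1:4394455-4394704, minus strand): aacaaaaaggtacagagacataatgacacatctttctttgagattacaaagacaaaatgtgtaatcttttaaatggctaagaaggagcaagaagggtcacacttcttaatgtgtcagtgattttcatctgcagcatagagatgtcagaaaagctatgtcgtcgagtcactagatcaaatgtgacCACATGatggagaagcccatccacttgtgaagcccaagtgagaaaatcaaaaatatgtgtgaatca
PRK (AT1G32060, chr1:11531949-11532198, plus strand): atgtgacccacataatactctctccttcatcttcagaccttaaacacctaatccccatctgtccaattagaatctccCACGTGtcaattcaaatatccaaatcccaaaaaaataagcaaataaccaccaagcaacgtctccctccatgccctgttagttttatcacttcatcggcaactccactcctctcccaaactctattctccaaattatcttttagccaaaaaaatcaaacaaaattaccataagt
GGT1 (AT1G23310, chr1:8272022-8272271, minus strand): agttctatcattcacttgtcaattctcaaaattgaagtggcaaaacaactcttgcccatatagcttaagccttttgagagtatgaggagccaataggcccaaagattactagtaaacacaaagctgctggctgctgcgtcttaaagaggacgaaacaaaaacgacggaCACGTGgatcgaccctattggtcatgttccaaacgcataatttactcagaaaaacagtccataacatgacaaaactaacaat

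The *RBCS2B* window held a G-box beginning 123 bases before the gene start and I-boxes beginning 146, 115 and 94 bases before it. *RBCS1B* held none of the 3 motifs in its window. The longest run shared by the pair was the 23 bases aaagcaaccgatcaagtggagac, which began 209 bases before the annotated start of *RBCS2B* and 69 bases before that of *RBCS1B*, so the windows do not cover matching stretches. *GAPA2* held a PBE-box beginning 66 bases before its start, *PRK* a G-box at 173 bases and *GGT1* a G-box at 82 bases. None of these 5 windows overlapped another annotated gene. The motifs are matches of letters and were not read as binding sites.

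The comparison of *pifq* with WT addresses the joint loss of the 4 PIFs in darkness. Of the 21 Calvin cycle genes 5 rose at least 2-fold and 0 fell, where 4.92% of all genes rose and 3.35% fell. They encode Rubisco activase, a Rubisco small subunit, a subunit of the NADP-dependent glyceraldehyde phosphate dehydrogenase and a pair of plastid aldolases. Of the 12 photorespiration genes 0 rose and 0 fell by edgeR, with 5 higher and 2 lower at an unadjusted p under 0.05 (16.4% and 15.1% of all genes), and DESeq2 also called 0 in either direction. At an adjusted p of at most 0.05 alone, 10 Calvin cycle and 2 photorespiration genes were higher (10.1% of all genes) and 0 and 1 were lower (8.28% of all genes). The median log2 ratio was 0.81 for the Calvin cycle and 0.42 for photorespiration, against -0.03 over all genes tested.

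**Figure D1:**
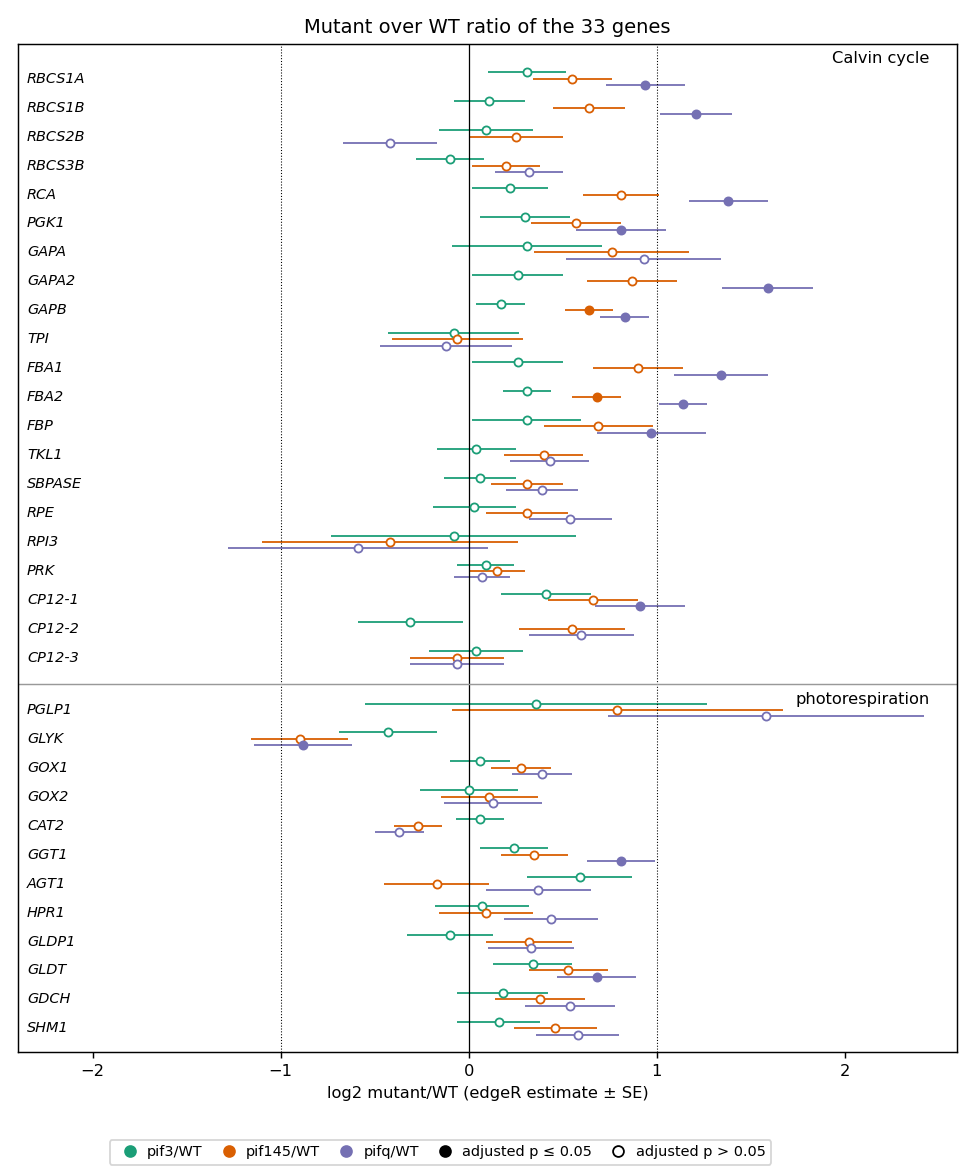
Log2 ratio of each mutant over WT for the 21 Calvin cycle genes (above the line) and the 12 photorespiration genes (below it), with the standard error (SE) of the edgeR estimate; filled points had an adjusted p of at most 0.05 and dotted lines mark a fold of 2. The 5 Calvin cycle genes past both thresholds in *pifq*/WT lie between 1.14 and 1.59, and *PGLP1* and *RPI3* have wide errors.

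Rubisco activase, *RCA* (AT2G39730), removes inhibitory sugar phosphates from the active sites of Rubisco. Its level was 405, 410 and 462 CPM in the WT libraries 1, 2 and 3, and 423, 438 and 621 in those of *pif3*. It was 804, 565 and 868 CPM in *pif145* and 1120, 907 and 1290 in *pifq*. The *pifq* libraries were above those of the other 3 genotypes, while WT and *pif3* overlapped. The log2 ratio in *pifq*/WT was 1.38 (SE 0.21, adjusted p = 0.000683 by edgeR), a rise of 2.6-fold.

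The small subunit of Rubisco is encoded by 4 nuclear genes, and the members of this family did not move alike. The CPM of 3′ tags are not scaled by transcript length, and on that scale *RBCS3B* (AT5G38410) made up most of the summed small subunit counts in every library, from 62.2% to 77.4%. *RBCS1B* (AT5G38430) was the member that rose: it was at 125, 116 and 167 CPM in the WT libraries, 152, 117 and 171 in those of *pif3*, 240, 179 and 219 in those of *pif145* and 346, 288 and 310 in *pifq*. Its 3 *pifq* libraries exceeded the 9 others, and the log2 ratio in *pifq*/WT was 1.21 (SE 0.19, adjusted p = 0.000868). *RBCS1A* (AT1G67090) was at 1530, 1750 and 1460 CPM in WT and 4040, 2330 and 2740 in *pifq*, without overlap. Its log2 ratio of 0.94 (SE 0.21, adjusted p = 0.00832) stayed under the fold threshold, and the ratios within replicates 1, 2 and 3 were uneven at 1.4, 0.41 and 0.90. *RBCS3B* overlapped between WT (5060, 7340 and 5220 CPM) and *pifq* (7700, 7990 and 6270 CPM), with a log2 ratio of 0.32 (SE 0.18, adjusted p = 0.251). With the replicate number as a block in the fit it passed at log2 0.33 (SE 0.08, adjusted p = 0.00162), and the *pifq* library was higher in 3 of 3 same-number pairs.

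*RBCS2B* (AT5G38420) went the other way. Its level was 363, 275 and 297 CPM in the WT libraries, 438, 241 and 319 in those of *pif3*, 478, 284 and 352 in those of *pif145* and 295, 185 and 220 in *pifq*. Replicate 1 was the highest library in every genotype, and the *pifq* libraries overlapped those of WT. The log2 ratio in *pifq*/WT was -0.42 (SE 0.25, adjusted p = 0.284), below 0 in 3 of 3 same-number pairs (-0.30, -0.57 and -0.43). With the block it was -0.44 (SE 0.08) and passed at an adjusted p of 8.35e-05. As a share of the small subunit counts, which depends on no scaling factor, *RBCS2B* took 2.9% to 5.13% in WT, 2.9% to 5.34% in *pif3*, 2.74% to 5.08% in *pif145* and 1.71% to 2.38% in *pifq*. The *pifq* shares thus lay below those of the 9 other libraries. The mean summed small subunit level was itself 1.38 times that of WT in *pifq*. The lower share therefore does not measure the level of *RBCS2B* alone. The share of *RBCS1B* was 1.23% to 2.33% in WT and 2.67% to 3.26% in *pifq*, also without overlap. The counting used only reads unique to a locus. In the last 500 bases of the annotated transcripts, 75.1% of 36-base windows were unique to *RBCS2B*, 70.3% to *RBCS3B* and 98.1% to *RBCS1A*. For *RBCS1B* 100% were unique in the first-numbered of its 2 annotated isoforms and 59.1% in the other. The levels of these genes relative to each other are therefore uncertain.

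**Figure D2:**
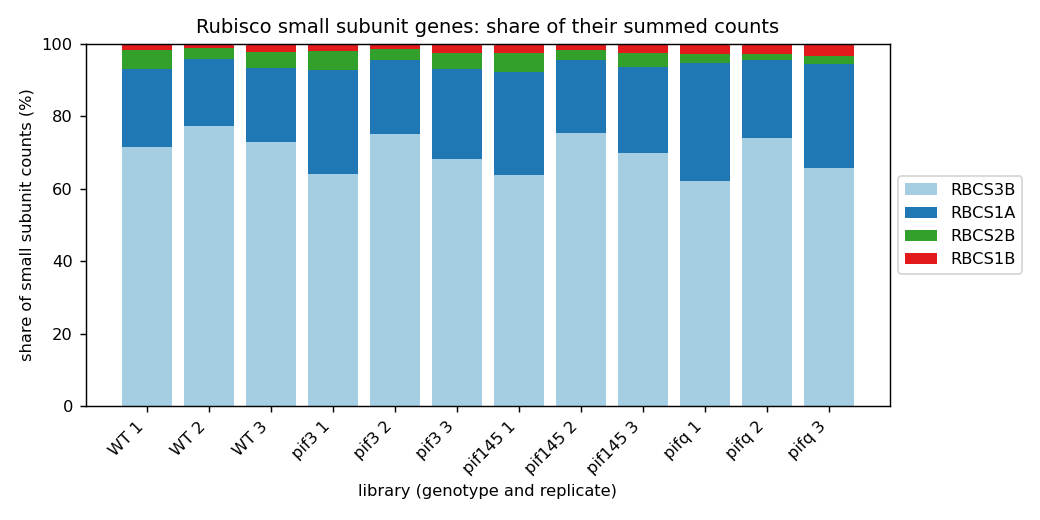
Stacked bars of the percentage of summed Rubisco small subunit counts taken by each of the 4 genes in each of the 12 libraries. *RBCS3B* takes 62.2% to 77.4%, and *RBCS2B* takes 1.71% to 2.38% in the *pifq* libraries against 2.74% to 5.34% in the 9 others.

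In the reduction phase, phosphoglycerate kinase passes a phosphate from ATP to 3-phosphoglycerate and glyceraldehyde phosphate dehydrogenase then uses NADPH. *GAPA2* (AT1G12900), a gene for the A subunit of this dehydrogenase, had the largest ratio among the genes that passed. It was at 163, 121 and 114 CPM in the WT libraries, 165, 143 and 170 in those of *pif3*, 340, 173 and 211 in those of *pif145* and 483, 343 and 373 in *pifq*. The *pifq* libraries were above the 9 others, and replicate 1 of *pif145* stood close below them. The log2 ratio in *pifq*/WT was 1.59 (SE 0.24, adjusted p = 0.000782), a rise of 3.01-fold with ratios of 1.57, 1.51 and 1.71 within replicates. *GAPB* (AT1G42970), which encodes the B subunit, had 362 to 412 CPM in WT and 658 to 757 in *pifq* (log2 0.83, SE 0.13, adjusted p = 0.00119). *PGK1* (AT3G12780), for phosphoglycerate kinase, had 90.6 to 134 CPM in WT and 144 to 233 in *pifq* (log2 0.81, SE 0.24, adjusted p = 0.034). *GAPA* (AT3G26650) had a ratio of like size (log2 0.93) and a spread between replicates that was larger: it was at 543, 358 and 333 CPM in WT and 1220, 551 and 579 in *pifq*, and did not pass (SE 0.41, adjusted p = 0.138). With the replicate block it passed at log2 0.85 (SE 0.09, adjusted p = 3.55e-07).

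In the regeneration phase the plastid aldolases were the genes that rose. Aldolase joins triose phosphates into fructose bisphosphate. *FBA2* (AT4G38970) had the smallest spread of the genes that rose: it was at 71.7, 71.3 and 72.6 CPM in the WT libraries, 89.4, 84.8 and 93.4 in those of *pif3*, 129, 104 and 111 in those of *pif145* and 174, 144 and 158 in *pifq*. The 4 genotypes did not overlap, and the log2 ratio in *pifq*/WT was 1.14 (SE 0.13, adjusted p = 0.000102). *FBA1* (AT2G21330) was lower, at 21.2, 26.8 and 34 CPM in WT and 61.9, 59.4 and 85.8 in *pifq*, and rose by a log2 ratio of 1.34 (SE 0.25, adjusted p = 0.0027). Plastid fructose bisphosphatase, *FBP* (AT3G54050), was at 25.7 to 48 CPM in WT and 59.6 to 87.5 in *pifq* (log2 0.97, SE 0.29, adjusted p = 0.0358). The other 6 regeneration enzymes did not pass. Transketolase *TKL1* (log2 0.43), sedoheptulose bisphosphatase *SBPASE* (0.39) and ribulose phosphate epimerase *RPE* (0.54) had adjusted p of 0.184, 0.181 and 0.11. Each of these 3 passed with the replicate block, at adjusted p of 1.41e-05, 0.00106 and 0.000107.

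Phosphoribulokinase, *PRK* (AT1G32060), makes the acceptor of carbon dioxide and is found in no other pathway of the plastid. Its level was 370, 388 and 412 CPM in the WT libraries, 434, 361 and 451 in those of *pif3*, 480, 372 and 445 in those of *pif145* and 475, 348 and 406 in *pifq*. The genotypes overlapped, and the log2 ratio in *pifq*/WT was 0.07 (SE 0.15, adjusted p = 0.793), or 0.06 (SE 0.08, adjusted p = 0.59) with the block. Plastid triose phosphate isomerase, *TPI* (AT2G21170), was at 203, 317 and 415 CPM in WT and 189, 294 and 375 in *pifq*, with replicate 1 the lowest in every genotype and a log2 ratio of -0.12 (SE 0.35, adjusted p = 0.842). *RPI3* (AT3G04790), the plastid ribose phosphate isomerase, had 127 reads over the 12 libraries and at most 0.738 CPM in any of them (log2 -0.59, SE 0.69, adjusted p = 0.603). An antisense neighbour overlaps its annotated 3′ end, and 57% of its 36-base windows were unique to it. That share was computed over both strands, whereas the authors counted the coding strand.

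CP12 proteins tie glyceraldehyde phosphate dehydrogenase and phosphoribulokinase into an inactive complex in the dark. *CP12-1* (AT2G47400) was at 499, 387 and 504 CPM in the WT libraries, 723, 481 and 642 in those of *pif3*, 926, 537 and 737 in those of *pif145* and 1100, 645 and 869 in *pifq*. WT and *pifq* did not overlap (log2 0.91, SE 0.24, adjusted p = 0.0209). *CP12-2* (AT3G62410) had 4.97 to 7.14 CPM in WT and 6.35 to 11.8 in *pifq* (log2 0.60, SE 0.28, adjusted p = 0.167, or 0.00129 with the block). *CP12-3* (AT1G76560) had 24.8 to 41.2 CPM in WT and 26.4 to 37.3 in *pifq* (log2 -0.06, SE 0.25, adjusted p = 0.9).

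**Figure D3:**
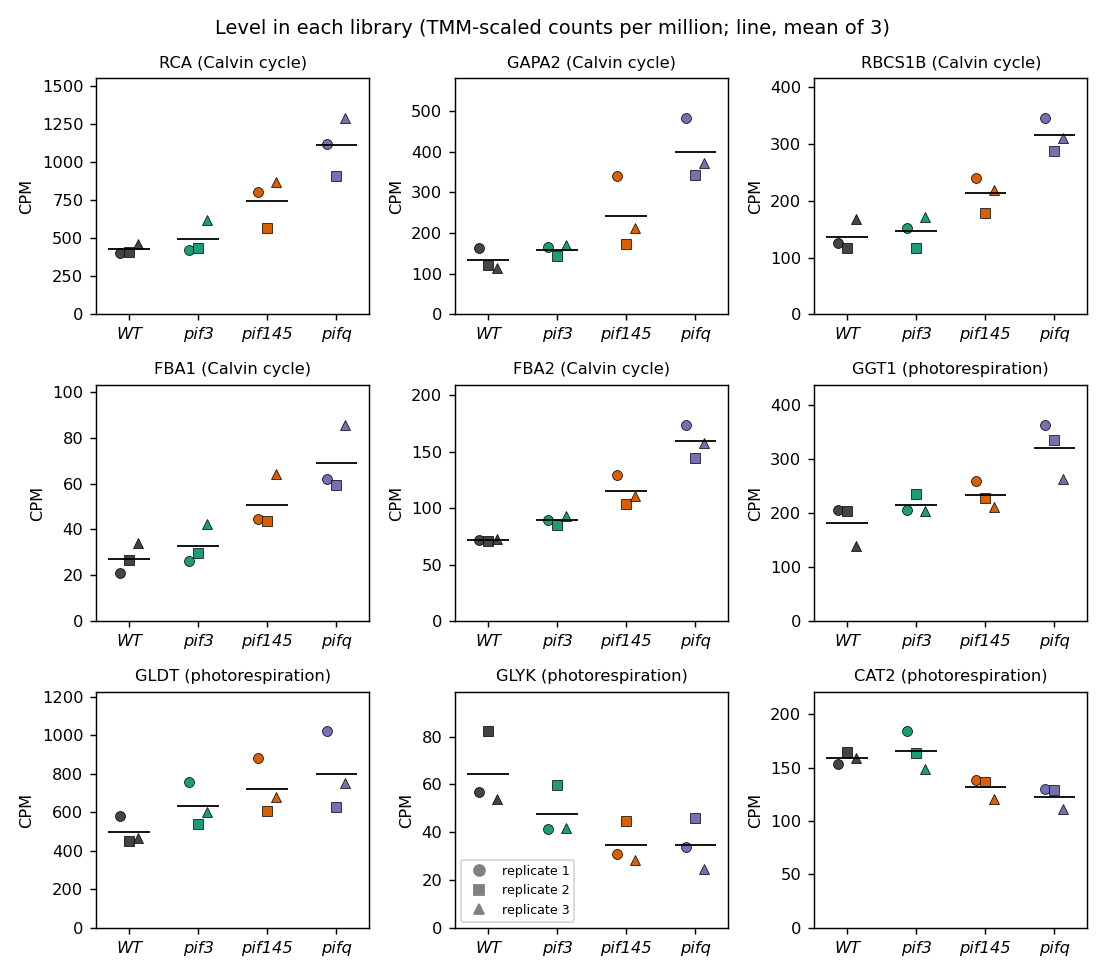
Level in each library (CPM after TMM scaling) by genotype for the 5 Calvin cycle genes that rose in *pifq*/WT and for 4 photorespiration genes; the marker gives the replicate number and the line the mean of 3 libraries. *RCA* goes from 405 to 462 CPM in WT to 907 to 1290 in *pifq*, and *GLYK* from 53.8 to 82.2 to between 24.7 and 46.

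Photorespiration starts and ends in the chloroplast, with phosphoglycolate phosphatase at the entry and glycerate kinase at the return. The kinase gene *GLYK* (AT1G80380) was the member with the lowest ratio. The WT libraries had 56.8, 82.2 and 53.8 CPM, those of *pif3* had 41.4, 59.8 and 41.6, those of *pif145* had 31, 44.5 and 28.2, and those of *pifq* had 33.8, 46 and 24.7. The *pifq* and WT libraries did not overlap, and the log2 ratio was -0.88 (SE 0.26, adjusted p = 0.0362), under the fold threshold and below 0 in 3 of 3 same-number pairs. The phosphatase *PGLP1* (AT5G36700) had 80 reads over the 12 libraries, and 0 of the 36-base windows at its 3′ end were unique, since all were shared with its copy *PGLP1B* (AT5G36790). Its log2 ratio of 1.58 (SE 0.84, adjusted p = 0.223) rests on those reads. With the replicate block it passed both thresholds at log2 1.68 (adjusted p = 0.0477) and made the count of photorespiration genes that rose 1 in place of 0, where 6.17% of all genes rose. The Calvin cycle count with the block was 5.

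In the peroxisome, glycolate oxidase makes glyoxylate and hydrogen peroxide, catalase removes the peroxide, aminotransferases make glycine, and hydroxypyruvate reductase makes glycerate. *GGT1* (AT1G23310), a glutamate:glyoxylate aminotransferase, was at 205, 204 and 138 CPM in the WT libraries, 206, 235 and 204 in those of *pif3*, 258, 228 and 211 in those of *pif145* and 363, 334 and 262 in *pifq*. Its *pifq* libraries were above the 9 others, and the log2 ratio in *pifq*/WT was 0.81 (SE 0.18, adjusted p = 0.00832). *CAT2* (AT4G35090), a catalase, moved opposite to it: it was at 153, 165 and 159 CPM in WT and 130, 129 and 111 in *pifq*, without overlap. Its log2 ratio of -0.37 (SE 0.13) missed the threshold (adjusted p = 0.0668) and passed with the block at -0.38 (adjusted p = 0.000252). The oxidase genes *GOX1* (AT3G14420) and *GOX2* (AT3G14415) stood at 98.7 to 132 and 283 to 485 CPM in WT. *GOX1* had a log2 ratio of 0.39 (adjusted p = 0.11, or 0.000137 with the block) and *GOX2* of 0.13 (adjusted p = 0.779, or 0.0751 with the block). The serine:glyoxylate aminotransferase *AGT1* (AT2G13360) was uneven between replicates, with ratios of 1.08, -0.26 and 0.15 (log2 0.37, SE 0.28, adjusted p = 0.399). The reductase *HPR1* (AT1G68010) had a log2 ratio of 0.44 (SE 0.25, adjusted p = 0.259) and passed with the block (SE 0.1, adjusted p = 0.000894).

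In the mitochondrion, the glycine decarboxylase complex and serine hydroxymethyltransferase turn glycine into serine. *GLDT* (AT1G11860), the T protein of the complex, was at 579, 451 and 467 CPM in the WT libraries, 757, 537 and 604 in those of *pif3*, 883, 606 and 677 in those of *pif145* and 1020, 627 and 750 in *pifq*. Replicate 1 was the highest in each genotype, and WT and *pifq* did not overlap (log2 0.68, SE 0.21, adjusted p = 0.0423). The other 3 genes were also above 0: *SHM1* (AT4G37930, the transferase) at log2 0.58, *GDCH* (AT2G35370, the H protein) at 0.54 and *GLDP1* (AT4G33010, the P protein) at 0.33. Their adjusted p were 0.0843, 0.145 and 0.362, and with the block 2.11e-05, 0.000142 and 0.00363.

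Leaving out libraries left the larger rises in place. *RCA*, *RBCS1B*, *GAPA2*, *FBA2* and *GAPB* passed the adjusted p under each of the 24 alternatives run, and *FBA1* missed it without replicate 2 (adjusted p = 0.0587). The count of Calvin cycle genes past both thresholds was 9 without *pifq* replicate 2, where 973 of 18527 genes rose. With all libraries 904 of 18356 genes rose. In the fit without the block, the calls at folds below 2 other than that of *GAPB* were less firm. *PGK1* missed the adjusted p without WT replicate 1 or 2 (0.113 and 0.1) and without *pifq* replicate 1 or 3 (0.0809 and 0.129). *FBP* missed it without the same libraries (0.119, 0.113, 0.0508 and 0.137). *CP12-1* missed it without WT replicate 2 (0.0877), *pifq* replicate 1 (0.0752) or *pifq* replicate 3 (0.0531), and *GLYK* without the same libraries (0.152, 0.0904 and 0.14). *GLDT* missed it without WT replicate 2 (0.139) or 3 (0.119), *pif3* replicate 3 (0.0551), *pif145* replicate 3 (0.053) or *pifq* replicate 1 (0.15) or 3 (0.074). *RBCS1A* missed it without replicate 3 of every genotype (0.121) and *GGT1* without replicate 2 (0.0889). Without scaling factors *GGT1* (0.0713), *GLDT* (0.21), *PGK1* (0.0632) and *CP12-1* (0.0879) missed it, so that both photorespiration genes higher at the adjusted p alone were lost. With only the compared genotypes in the fit *GLDT* (0.0617) and *GLYK* (0.0532) missed it. With the replicate block and all libraries these genes passed the adjusted p by edgeR. It was 2.04e-06 for *RBCS1A*, 2.75e-06 for *PGK1*, 7.06e-08 for *FBP* and 1.49e-08 for *CP12-1*. For *GLYK*, *GGT1* and *GLDT* it was 3.05e-08, 3.69e-07 and 1.46e-07.

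The pathways were also compared as sums. The 21 Calvin cycle genes together were at 11700 ± 1160 CPM in WT (SD, n = 3), 12200 ± 541 in *pif3*, 15100 ± 795 in *pif145* and 17400 ± 2140 in *pifq*. The 12 photorespiration genes were at 1640 ± 96.3, 1830 ± 17.1, 1960 ± 99.5 and 2170 ± 182 CPM. The mean of *pifq* was thus 1.49 times that of WT for the Calvin cycle and 1.32 times for photorespiration, and that of *pif3* 1.04 and 1.12 times. The ratio of Calvin cycle to photorespiration counts, which needs no scaling factor, was 6.96, 7.49 and 7.04 in WT, 6.95, 6.61 and 6.51 in *pif3*, 7.75, 7.81 and 7.65 in *pif145* and 8.35, 7.79 and 7.86 in *pifq*. It was higher in the *pif145* and *pifq* libraries than in those of WT and *pif3*. Most Calvin cycle counts came from the small subunits, which summed to 7900 ± 1370 CPM in WT. Without them the ratio was 2.54, 2.06 and 2.47 in WT, 2.52, 2.05 and 2.52 in *pif3*, 3.2, 2.35 and 2.89 in *pif145* and 3.14, 2.59 and 3.2 in *pifq*, with replicate 2 the lowest in each genotype. On that measure the *pif145* libraries overlapped those of WT and *pif3*, and the *pifq* libraries did not. Within each replicate number the *pif145* library was nevertheless above those of WT and *pif3*. These sums are descriptions with no test.

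**Figure D4:**
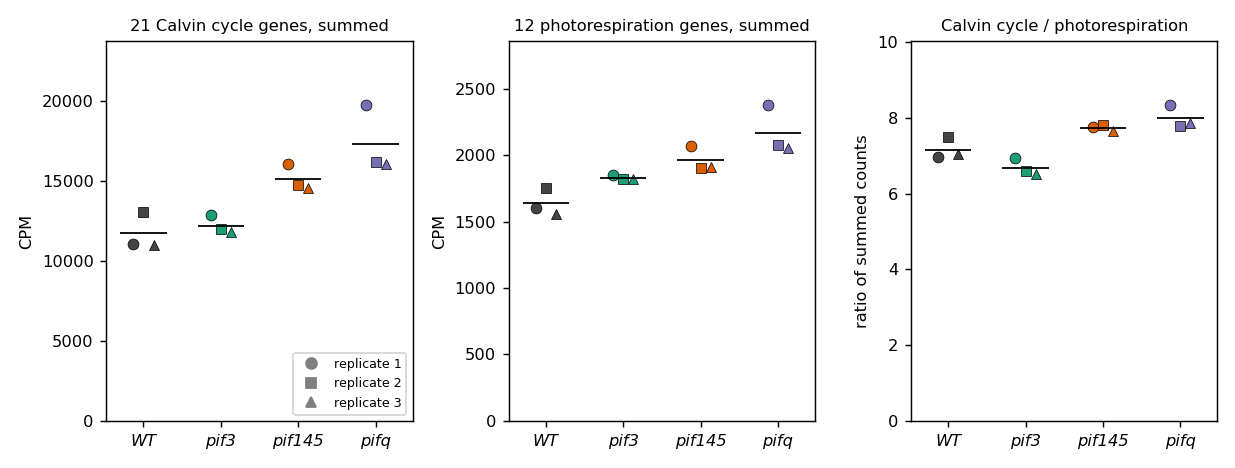
Summed level of the Calvin cycle and photorespiration genes (CPM after TMM scaling) and the ratio of their summed counts, by genotype, with the replicate number as the marker and the mean of 3 libraries as the line. The ratio is 6.51 to 7.49 in the WT and *pif3* libraries and 7.65 to 8.35 in those of *pif145* and *pifq*.

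Counted over genes, 12 Calvin cycle and 5 photorespiration genes had *pifq* libraries wholly above those of WT (17.2% of all genes), and 0 and 2 wholly below (16.7% of all genes). The *pifq* library was above the WT library of the same number in 3 of 3 pairs for 16 of 21 Calvin cycle and 9 of 12 photorespiration genes, against 31.9% of all genes. The genotype means rose in the order WT, *pif3*, *pif145*, *pifq* for 14 and 7 genes (18.4% of all genes) and fell in that order for 1 and 0 (17.7%). Adjusted p alone with the replicate block put 16 Calvin cycle and 8 photorespiration genes higher (24.6% of all genes) and 1 and 2 lower (25.9%). The genes lower in that fit were *RBCS2B*, *GLYK* and *CAT2*. The libraries are of whole seedlings, and more cells that express a gene cannot be told apart from more RNA per cell. Across genes, replicate 1, which was sequenced on a different instrument, was the highest library in each genotype for 4 Calvin cycle and 4 photorespiration genes (18.4% of all genes) and the lowest for 2 and 2 (19.1%).

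The comparison of *pif145* with WT addresses the loss of PIF1, PIF4 and PIF5 with PIF3 present. By edgeR 0 of the 33 genes passed both thresholds, where 0.893% of all genes rose and 150 of 18356 fell. At an unadjusted p under 0.05, 11 were higher (9.42% of all genes) and 1 lower (7.33%), and DESeq2 called 0 at both thresholds. At an adjusted p of at most 0.05 alone 2 Calvin cycle genes were higher (1.97% of all genes), *FBA2* with a log2 ratio of 0.68 (SE 0.13, adjusted p = 0.0141) and *GAPB* with 0.64 (SE 0.13, adjusted p = 0.0231). In the fit without the block, both calls were lost without WT replicate 2 (adjusted p of 0.0668 and 0.0842) or WT replicate 3 (0.0571 and 0.0995). They were also lost without *pif145* replicate 1 (0.059 and 0.0766) or 3 (0.0511 and 0.103), and that of *GAPB* without WT replicate 1 (0.0511). With all libraries kept, both were lost without scaling factors (0.0891 for *FBA2* and 0.0831 for *GAPB*). The same held with only the compared genotypes in the fit (0.0661 and 0.0787). Without *pif145* replicate 2 the count past both thresholds was 1, where 156 of 18687 genes rose and 116 fell. The genes that rose in *pifq*/WT had ratios in *pif145*/WT of 0.90 (*FBA1*), 0.87 (*GAPA2*), 0.81 (*RCA*), 0.68 (*FBA2*) and 0.64 (*RBCS1B*). *GLYK* was as low in *pif145* as in *pifq*, with a log2 ratio of -0.90 (SE 0.26, adjusted p = 0.0924). With the replicate block 16 Calvin cycle and 6 photorespiration genes were higher at an adjusted p of at most 0.05 alone (16.2% of all genes), and 0 and 2 were lower (15.5%), namely *GLYK* (adjusted p = 1.39e-07) and *CAT2* (adjusted p = 0.00719).

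The comparison of *pif3* with WT addresses the loss of PIF3 alone. By edgeR 0 of the 33 genes passed, where 0.0272% of all genes rose and 2 of 18356 fell. Of the 33, 1 gene was higher at an unadjusted p under 0.05 (2.97% of all genes). DESeq2 called 0 as well. That gene was *FBA2*, with a log2 ratio of 0.31 (SE 0.13), and it was the member whose *pif3* libraries lay wholly above those of WT (5.17% of all genes). The median log2 ratio was 0.11 for the Calvin cycle and 0.12 for photorespiration. With the block 4 genes were higher at an adjusted p of at most 0.05 alone (5.11% of all genes): *FBA2*, *CP12-1* (log2 0.40), *GLDT* (0.34) and *AGT1* (0.58). *GLYK* was lower in that fit, at log2 -0.43 (adjusted p = 0.00257), where 2.77% of all genes were lower. *AGT1* was thus higher in *pif3* (70.3, 63.1 and 50.9 CPM) than in WT (36.5, 53.2 and 32.7 CPM), with overlap between the groups, while *pif145* was at 43.6, 35.6 and 29.3 CPM.

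The comparison of *pifq* with *pif145* addresses what PIF3 loss adds in seedlings that already lack the other 3 PIFs. By edgeR 0 of the 33 genes passed, where 0.251% of all genes rose and 87 of 18356 fell. At an unadjusted p under 0.05 there were 5 higher (4.59% of all genes) and 1 lower (4.19%). DESeq2 called 0 past both thresholds, where it called 91 of 18351 genes higher and 119 lower. It called 1 member at its adjusted p alone, for which the share of all genes is not given here. Without *pif145* replicate 1, 1 Calvin cycle gene passed both thresholds by edgeR. The median log2 ratio was 0.19 for the Calvin cycle and 0.13 for photorespiration. With the block 8 Calvin cycle and 3 photorespiration genes were higher at an adjusted p of at most 0.05 alone (7.71% of all genes). The largest of these ratios were those of *GAPA2* (log2 0.76, SE 0.11), *RBCS1B* (0.58, SE 0.09) and *RCA* (0.57, SE 0.09) in the Calvin cycle, and *AGT1* (0.51, SE 0.15) in photorespiration. *RBCS2B* was lower in that fit at log2 -0.67 (SE 0.08, adjusted p = 4.6e-06), where 7.03% of all genes were lower. Without the block its ratio was also -0.67, with an SE of 0.25 and an adjusted p of 0.404.

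The comparison of *pifq* with *pif3* addresses what losing the other 3 PIFs adds in seedlings without PIF3. Of the 21 Calvin cycle genes 4 rose (2.49% of all genes) and 0 fell, where 465 of 18356 genes fell. Those that rose were *GAPA2* (log2 1.33, SE 0.24, adjusted p = 0.0047), *RCA* (1.16, SE 0.21, adjusted p = 0.00387), *RBCS1B* (1.1, SE 0.19, adjusted p = 0.00317) and *FBA1* (1.08, SE 0.24, adjusted p = 0.0151). The *pifq* libraries of these 4 genes did not overlap those of *pif3*. At an adjusted p of at most 0.05 alone, *FBA2* and *GAPB* were added, making 6 (5.59% of all genes). Of the 12 photorespiration genes 0 passed by edgeR, with 1 higher and 1 lower at an unadjusted p under 0.05 (13.1% and 11.8% of all genes), and DESeq2 called 0 past both thresholds. The count of 4 was 1 without replicate 2 of every genotype, where 139 of 18395 genes rose. It was 2 without *pif3* replicate 2, where 326 of 18544 genes rose. *FBA1* lost its call without *pif3* replicate 1 (adjusted p = 0.0592), *pif3* replicate 2 (0.0618) or *pifq* replicate 3 (0.0673), and *RBCS1B* fell under the fold threshold without *pif3* replicate 2 (log2 0.97). Without replicate 2 of every genotype *GAPA2* (0.0687), *RBCS1B* (0.0529), *FBA1* (0.17) and *GAPB* (0.124) missed the adjusted p. Without replicate 3 of every genotype *GAPA2* (0.106), *GAPB* (0.0901) and *FBA2* (0.0757) missed it, and without replicate 1 *FBA1* did (0.0553). *RCA* passed it under each of the 24 alternatives. With the block 16 Calvin cycle and 7 photorespiration genes were higher at an adjusted p of at most 0.05 alone (21.3% of all genes), and 1 and 2 were lower (20.9%), again *RBCS2B*, *GLYK* and *CAT2*. The comparisons share libraries and are not independent of each other.

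Whether the loss of PIF3 had another effect with PIF1, PIF4 and PIF5 lacking than with them present was tested as the difference of *pifq*/*pif145* and *pif3*/WT. By edgeR 0 of the 33 genes passed (0.109% of all genes), 0 had an unadjusted p under 0.05 (3.09% of all genes), and DESeq2 called 0. With the block 1 gene passed (2.57% of all genes), *RBCS2B*, at a log2 difference of -0.73 (SE 0.11, adjusted p = 0.000403). The estimate without the block was -0.77 (SE 0.36).

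Other genes of the pathways were read from lists of isoforms and partners, beside shares of all genes in *pifq*/WT of 4.92% that rose, 10.1% that were higher at the adjusted p alone and 16.4% that were higher at an unadjusted p under 0.05. The 9 other isoforms of Calvin cycle enzymes were listed by enzyme, and whether each acts in the plastid was not checked. In *pifq*/WT 0 of these 9 passed both thresholds by edgeR, 3 had an unadjusted p under 0.05, and DESeq2 called 0. The isomerase gene *RPI2* was higher at its adjusted p alone (log2 0.78, adjusted p = 0.000872), and *RPI1*, *RPI4* and *PGK2* had ratios of 0.47, 0.57 and 0.20. In TAIR10.1, 0 of the 36-base windows of *RPI2* were unique to it, since AT2G03925 shares them. Those windows were compared over both strands, whereas the authors counted the coding strand, so they do not show which reads the authors assigned to *RPI2*. Of 9 tested Rubisco assembly genes 0 passed both thresholds by edgeR or DESeq2, 6 had an unadjusted p under 0.05 and 4 were higher at an adjusted p of at most 0.05 alone. They included the chaperonin subunits *CPN60A1* (log2 0.85) and *CPN60B2* (0.83) and the assembly factor *BSD2* (0.66). Thioredoxins pass electrons from ferredoxin to Calvin cycle enzymes that light activates. Of 9 redox control genes 1 rose, *TRXF1*, a thioredoxin of the f type (log2 1.33, SE 0.21, adjusted p = 0.000922, 5.89 ± 0.868 CPM in WT and 14.8 ± 2.18 in *pifq*), and *FTRA1*, *FTRA2* and *TRXM4* were higher at the adjusted p alone (0.68, 0.68 and 0.73).

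Of 15 tested other photorespiration isoforms 1 rose, *PGLP1B*, which had 16 reads in WT and 65 in *pifq* and cannot be told apart from *PGLP1* by its 3′ end. The H protein gene *GLDH3* (log2 0.88, adjusted p = 0.00209) and the transferase gene *SHM2* (0.54, adjusted p = 0.0223) were higher at the adjusted p alone, and *GLDH2* had a ratio of 0.50 (adjusted p = 0.0504). Of 7 genes for transporters and ammonia recapture 1 rose, *DIT1*, a plastid dicarboxylate carrier that brings in oxoglutarate for the recapture of ammonia. Its WT mean was 29.9 ± 2.91 CPM (SD, n = 3), against 31.3 ± 0.545 in *pif3*, 48.2 ± 2.08 for *pif145* and 71.1 ± 5.82 for *pifq* (log2 1.25, SE 0.13, adjusted p = 4.66e-05 in *pifq*/WT). *GLN2*, the plastid glutamine synthetase (log2 0.68, adjusted p = 0.0255), and the carrier gene *BOU* (0.46, adjusted p = 0.027) were higher at the adjusted p alone, and *DIT2.2* had a ratio of -0.33 (adjusted p = 0.271).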

How the data were processed

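Messenger RNA 3′ ends of 12 libraries were sequenced, 3 for each of 4 genotypes. The authors deposited raw read counts per locus in 4 tables. Per the study's methods, replicate 1 was read on a GAIIx and replicates 2 and 3 on a HiSeq2000, reads were used at 36 bases, and Bowtie aligned them with 0 mismatches to representative transcripts. Reads unique to the last 500 bases on the coding strand were counted, so near-identical genes lose reads. The methods name TAIR9 and the submitters' processing notes TAIR10, Bowtie 0.12.7 and CASAVA 1.7.0. The methods name edgeR but neither its test nor any covariates.

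Groups and replicate numbers came from the sample labels. Counts were scaled by TMM, filtered with filterByExpr and tested by the quasi-likelihood test of edgeR 4.0.16 (R 4.3.3) with genotype as the only term over the 12 libraries. P-values were adjusted by Benjamini-Hochberg over 18356 genes. A gene rose or fell at an adjusted p of at most 0.05 and a fold of at least 2. The 5 comparisons and a difference of differences were made, and all 33 genes, the 4 of each further list with the smallest p in *pifq*/WT, and the PIF genes are named, except 1 gene of a further list that is not reported here. Members and lists were chosen with earlier results of these data known. Alternatives were DESeq2 1.42.0, other scalings, filters and samples, and the replicate number as a block.

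Same-number libraries deviated together from their genotype means (correlations of 0.51 to 0.68 in 18 pairs, against -0.49 to 0 between different numbers), so the numbers pair the libraries. The common dispersion fell from 0.0572 to 0.00719 with the block. No pair of replicates agreed within sampling noise (lowest chi-square divided by its degrees of freedom, 37.5). The reads carry no molecular identifiers. Genes were matched by locus identifier, and common names are used where RefSeq's symbol differs. The fit without the block was tested for *pifq*/WT on simulated counts drawn with no effect of the replicate number, unlike these data. Protein sequences were not used here.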

Additional observations from a re-analysis of the deposited data

Results flagged for a closer look

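The effect of losing PIF3 on *RBCS2B* differed between seedlings with and without PIF1, PIF4 and PIF5 in the fit with the replicate block, at a log2 difference of -0.73 (adjusted p = 0.000403 by edgeR). It was chosen by a test of the difference itself in that fit, so the p-value is not independent of the choice. *RBCS2B* was the 1 gene of the 33 that passed there, where 2.57% of all genes passed. The ratio was 0.06 in *pif3*/WT and -0.67 in *pifq*/*pif145* in that fit. Without the block the difference did not pass, with an adjusted p of 1. Replicate 1 was the highest *RBCS2B* library in every genotype, and its part in the result was not tested.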

How the results depend on the processing

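In *pifq*/WT the count of Calvin cycle genes past both thresholds was 5 under edgeR with RLE scaling, DESeq2, the platform as a term and the replicate block, 4 without scaling factors, 5 to 9 when libraries were left out, and 10 with no fold threshold. The count for photorespiration was 0, or 1 with the replicate block and 2 with no fold threshold. In *pif145*/WT the Calvin cycle count was 0, or 0 to 1 with libraries left out and 2 with no fold threshold. With libraries left out it was 0 to 1 in *pifq*/*pif145* and 1 to 5 in *pifq*/*pif3*. For the difference of differences the count was 0, or 1 with the replicate block. The block moved no other count of called Calvin cycle or photorespiration genes past both thresholds by over 1.5 times. The summed photorespiration level in WT was 1750 CPM without scaling factors. Over all genes the count that rose in *pif3*/WT was 5, or 54 by DESeq2 and 100 with the block. It was 46, or 91 and 170, in *pifq*/*pif145*, and 164, or 250 and 371, in *pif145*/WT.

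Values near 0 changed sign. Without scaling factors *PRK* was at -0.09 and *GOX2* at -0.02 in *pifq*/WT, *RBCS2B* at -0.01 in *pif3*/WT and *GLYK* at -0.04 in *pifq*/*pif145*. With libraries left out the ranges in *pifq*/WT were -0.36 to 0.13 for *TPI*, -0.09 to 0.19 for *PRK*, -0.24 to 0.11 for *CP12-3*, -0.08 to 0.31 for *GOX2* and -0.10 to 0.73 for *AGT1*. They were -0.15 to 0.28 for *RBCS2B* in *pif3*/WT and -0.23 to 0.24 for *GLYK* in *pifq*/*pif145*. The causes were not tested. The lowest depths were those of *RPI3* and *PGLP1*, with 127 and 80 reads in all and SEs of 0.69 and 0.84 in *pifq*/WT.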
